A study of Mus musculus with 4 samples.

Results

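The genes described here encode proteins of neutrophil granules, or mark the precursor stages at which those proteins are made. They are 10 of the 19938 genes measured, chosen by name: Mpo, Elane, Prtn3 and Ctsg of the primary granules, and Ms4a3, Fcnb, Camp, Ngp, Mmp8 and Mmp9, which the rule sets against them as the secondary and tertiary ones. RNA of nasal mucosa, taken from septum and turbinates of mice aged 8 weeks (strain C56BL/6, as the labels spell it), was hybridised to 4 Affymetrix gene arrays. The 4 groups, with 1 array each, were Duox2-/- mice given flagellin, Duox2-/- mice given PBS, wild-type mice given flagellin and wild-type mice given PBS. Mice received 25 ul per nostril, with flagellin at 5 ug/ml, and exposure lasted 4 h. Neither the making of the Duox2 allele nor the number of mice behind an array is stated in the labels.

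Neutrophils build their granules in the bone marrow, in an order that follows maturation. Primary (azurophil) granules form first, in promyelocytes, and are filled with myeloperoxidase and serine proteases. Secondary (specific) granules follow in myelocytes and metamyelocytes, tertiary (gelatinase) granules last, and each protein is packed into whichever granule is forming while its gene is transcribed. A mature neutrophil that enters a tissue therefore carries the proteins, while most messages of the primary granules have already ceased. Flagellin is sensed by an epithelial Toll-like receptor and draws neutrophils into airways, and Duox2 is an epithelial NADPH oxidase that releases hydrogen peroxide.

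Values are log2 RMA values, and a log2 difference of 1 is 2-fold. With 1 array in each group there is no spread between mice to hold a difference against, and array, batch and group cannot be told apart. Differences are therefore given as sizes, with no replicate check. Duox2 itself read 5.50 in the flagellin array labelled Duox2-/- and 5.23 in the PBS array labelled Duox2-/-, against 5.12 with flagellin and 4.95 with PBS in wild type. It was thus not lower in the arrays labelled Duox2-/-, and the labels do not say whether its probe set lies within the altered part of the gene. Array medians lay between 6.48 and 6.56. The nasal epithelium was well represented, with 14 of 15 matched marker genes at or over 6.52, the median of all values and the level used here to call a gene dim or not. A value under it is read as near background, not as absence of the message.

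Only Mpo, Ngp and Mmp9 reached 6.52 in at least 1 array, and the other 7 genes stayed under it in all 4, where a log2 difference tends to understate a change in message. Mpo passed by 0.05 in the wild-type flagellin array alone, and Fcnb and Camp fell short by 0.33 and 0.32 at their highest. In a bulk sample, fewer neutrophils and less message per neutrophil cannot be told apart. Each of the 10 genes had 1 probe set.

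The regions before the gene starts are shown because the classes differ in the letters found there. All primary members are printed, and of the others Ngp and Mmp8, which hold marked letters. Windows of Fcnb, which also holds them, and of Ms4a3 and Camp, which do not, were searched but are not printed. The capitals mark GAGGAA, a core bound by PU.1, the myeloid transcription factor (runs of 6, TTCCTC on the other strand), and TTGCNNAA, a form of the C/EBP site (runs of 8, either strand). No 2 marked runs overlap in these windows. Each sequence is the 250 bases before the start of the gene, 5′ to 3′ on the strand of the gene, from RefSeq in GRCm38.p6.
Mpo, chr11:87793534-87793783, plus strand: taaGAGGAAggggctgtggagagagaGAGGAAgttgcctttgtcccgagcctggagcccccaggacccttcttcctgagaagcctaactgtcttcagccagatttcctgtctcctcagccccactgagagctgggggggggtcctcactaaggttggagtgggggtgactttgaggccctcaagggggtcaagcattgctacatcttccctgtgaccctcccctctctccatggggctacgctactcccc
Elane, chr10:79886062-79886311, plus strand: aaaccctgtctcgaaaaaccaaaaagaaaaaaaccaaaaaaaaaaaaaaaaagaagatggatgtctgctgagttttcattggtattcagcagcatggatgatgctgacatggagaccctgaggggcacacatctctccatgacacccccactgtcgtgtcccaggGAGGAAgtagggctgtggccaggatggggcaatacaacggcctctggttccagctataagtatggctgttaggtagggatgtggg
Prtn3, chr10:79879417-79879666, plus strand: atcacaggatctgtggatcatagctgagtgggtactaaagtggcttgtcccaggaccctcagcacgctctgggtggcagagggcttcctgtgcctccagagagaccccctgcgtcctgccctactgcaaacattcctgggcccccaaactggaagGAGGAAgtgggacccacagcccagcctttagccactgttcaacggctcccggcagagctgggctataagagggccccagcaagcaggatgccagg
Ctsg, chr14:56102575-56102824, minus strand: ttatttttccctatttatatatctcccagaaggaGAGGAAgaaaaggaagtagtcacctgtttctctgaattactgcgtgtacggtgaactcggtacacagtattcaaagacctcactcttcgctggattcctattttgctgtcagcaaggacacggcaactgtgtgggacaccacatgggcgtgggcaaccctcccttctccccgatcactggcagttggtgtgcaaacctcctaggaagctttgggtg
Ngp, chr9:110419558-110419807, plus strand: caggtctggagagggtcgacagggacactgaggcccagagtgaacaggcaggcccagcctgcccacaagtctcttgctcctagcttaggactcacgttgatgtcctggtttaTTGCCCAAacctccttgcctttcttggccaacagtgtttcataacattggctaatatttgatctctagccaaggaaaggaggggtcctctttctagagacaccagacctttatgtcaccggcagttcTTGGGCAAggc
Mmp8, chr9:7558179-7558428, plus strand: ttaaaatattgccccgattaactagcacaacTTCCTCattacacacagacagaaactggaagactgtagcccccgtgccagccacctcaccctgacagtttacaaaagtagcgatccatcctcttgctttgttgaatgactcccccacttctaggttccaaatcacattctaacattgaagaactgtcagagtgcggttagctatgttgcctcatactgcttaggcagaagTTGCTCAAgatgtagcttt

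A promoter entry was matched for 9 of the 10 members, Mmp9 being the exception. GAGGAA stood in 4 of 4 primary granule promoters and in 1 of 5 of the others (Mmp8), against 23.3% of 32851 mouse promoter windows of the same length. It began 85 and 95 bases before the start in Elane and Prtn3, which are neighbours on chromosome 10 with 3137 bases and no other protein-coding gene between them. TTGCNNAA stood in 0 of 4 primary granule promoters and in 3 of 5 of the others (Fcnb, Ngp and Mmp8), against 9.56% of all windows. The RUNX core TGTGGT and the TATA box letters TATAAA were each found in Ctsg alone, against 14.0% and 12.4% of all windows. The TATAAA of Ctsg lay on the other strand, at -237 to -232 from the start. Only these exact letters were searched, so the TATAAG in the printed Elane and Prtn3 windows is not counted. A form of the NF-kB site was in none of the 9, against 1.21% of all windows. Ms4a3 and Camp held none of these letters. These motifs were chosen with the identity of the genes known and both strands were searched. A match of letters is a description of the window and not a site in use.

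**Figure D1:**
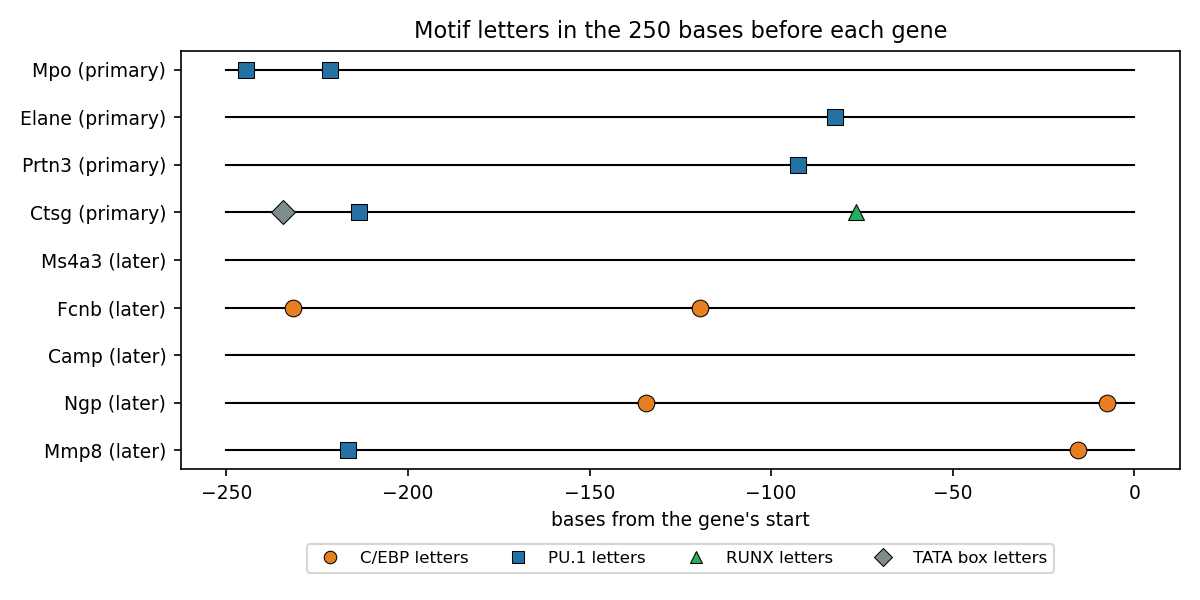
Motif letters in the 250 bases before the start of 9 granule genes, with distance from the start in bases on the x axis, 1 line per gene and 1 symbol per match. Blue squares (PU.1 letters) are on all 4 primary granule genes and on Mmp8, and orange circles (C/EBP letters) are on Fcnb, Ngp and Mmp8.

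The first question was which granule genes were higher after flagellin in each genotype. In wild type 9 of 10 were higher, led by Ngp, Mmp8 and Mpo, and in the arrays labelled Duox2-/- 7 of 10 were, all by less than 2-fold. The primary granule genes were higher in both genotypes without exception, while Ngp, Ms4a3 and Mmp9 were lower in the arrays labelled Duox2-/-. The fold values that follow compare 1 array with 1 array.

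Mpo, myeloperoxidase, turns hydrogen peroxide and chloride into hypochlorous acid. It had log2 values of 5.83 in the flagellin array labelled Duox2-/-, 5.49 in the PBS array labelled Duox2-/-, 6.57 with flagellin in wild type and 5.43 with PBS in wild type. Wild-type flagellin was the only array over the dim limit, and both PBS arrays were the lowest. Its log2 difference for flagellin minus PBS was 0.33 in the arrays labelled Duox2-/- and 1.14 in wild type, or 2.20-fold in wild type.

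Elane, Prtn3 and Ctsg encode the serine proteases neutrophil elastase, proteinase 3 and cathepsin G, which are stored active beside myeloperoxidase. Elane had log2 values of 5.61 and 5.34 in the flagellin and PBS arrays labelled Duox2-/-, and 5.62 and 5.26 in the wild-type flagellin and PBS arrays. Prtn3, its neighbour, had 5.94 and 5.77 in the flagellin and PBS arrays labelled Duox2-/-, and 6.02 and 5.52 in the wild-type flagellin and PBS arrays. Ctsg had 5.05 and 4.61 in the flagellin and PBS arrays labelled Duox2-/-, and 5.21 and 4.48 in the wild-type flagellin and PBS arrays. For each protease both flagellin arrays were above both PBS arrays. This held for 4 of 4 primary granule genes under every scaling, against 9.09% of all genes as deposited, and for 1 of 6 of the others (Mmp8) as deposited and 2 under each other scaling. The differences after flagellin were 0.27, 0.17 and 0.44 in the arrays labelled Duox2-/- and 0.36, 0.50 and 0.74 in wild type for Elane, Prtn3 and Ctsg.

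Ngp, neutrophilic granule protein, is a cathelicidin-related protein of mouse secondary granules. It had log2 values of 6.99 in the flagellin array labelled Duox2-/-, 7.15 in the PBS array labelled Duox2-/-, 8.44 with flagellin in wild type and 5.47 with PBS in wild type. It had the widest range of the 10 genes, with wild-type flagellin on top, wild-type PBS at the bottom, and both arrays labelled Duox2-/- close together between them. Flagellin minus PBS was -0.16 in the arrays labelled Duox2-/- and 2.97 in wild type, or 7.83-fold in wild type.

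Camp encodes the mouse cathelicidin, whose peptide kills bacteria once cut from its precursor. It lies on chromosome 9 as Ngp does, with 570351 bases and 8 protein-coding genes between them. It read 6.21 and 6.20 in the flagellin and PBS arrays labelled Duox2-/-, and 6.19 and 5.57 in the wild-type flagellin and PBS arrays. Of the 4 arrays 3 thus lay within 0.02 of each other, and the wild-type PBS array stood 0.62 under the lowest of them. Its difference after flagellin was 0.01 in the arrays labelled Duox2-/-, turning to as little as -0.05 with quantile renormalisation or cyclic loess, and 0.62 in wild type.

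Mmp8, the neutrophil collagenase of secondary granules, read 5.30 and 5.04 in the flagellin and PBS arrays labelled Duox2-/-, and 6.07 and 4.21 in the wild-type flagellin and PBS arrays. Its order of arrays was that of Ngp apart from the arrays labelled Duox2-/-, in which flagellin was the higher. The difference after flagellin was 0.26 in the arrays labelled Duox2-/- and 1.86 in wild type, or 3.63-fold in wild type.

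Mmp9, gelatinase B, is the namesake of the tertiary granules and is also made by osteoclasts. Its log2 values were 9.0 and 9.26 in the flagellin and PBS arrays labelled Duox2-/-, and 8.77 and 8.83 in the wild-type flagellin and PBS arrays. It was the only member that was lower after flagellin in both genotypes, with differences of -0.26 in the arrays labelled Duox2-/- and -0.06 in wild type. Acp5 and Ctsk, markers of osteoclasts, were also lower after flagellin in the arrays labelled Duox2-/-, at -0.54 and -0.59, and were at 0.06 and 0.05 in wild type. Their part in the Mmp9 values was not tested.

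Fcnb, ficolin B, is a lectin of the complement pathway that mouse myeloid precursors make. It read 6.20 and 5.93 in the flagellin and PBS arrays labelled Duox2-/-, and 5.85 and 5.53 in the wild-type flagellin and PBS arrays. Both arrays labelled Duox2-/- were the higher as deposited, but the genotypes overlapped after quantile renormalisation and cyclic loess. As deposited, both arrays labelled Duox2-/- stood above both wild-type arrays for 0 of 4 primary genes and 4 of 6 of the others (Ms4a3, Fcnb, Camp and Mmp9), against 34.4% of all genes and 61.3% of the dim genes, and the 4 became 3, 2 and 1 under the other scalings. The Fcnb differences after flagellin were close to each other, 0.26 in the arrays labelled Duox2-/- and 0.32 in wild type. Ms4a3, a membrane protein of granulocyte and monocyte progenitors rather than a granule protein, read 4.71 and 5.01 in the flagellin and PBS arrays labelled Duox2-/-, and 4.54 and 4.48 in the wild-type flagellin and PBS arrays. Both arrays labelled Duox2-/- stood above both wild-type arrays, a gap that closed under cyclic loess. Its differences after flagellin were -0.30 in the arrays labelled Duox2-/- and 0.06 in wild type.

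**Figure D2:**
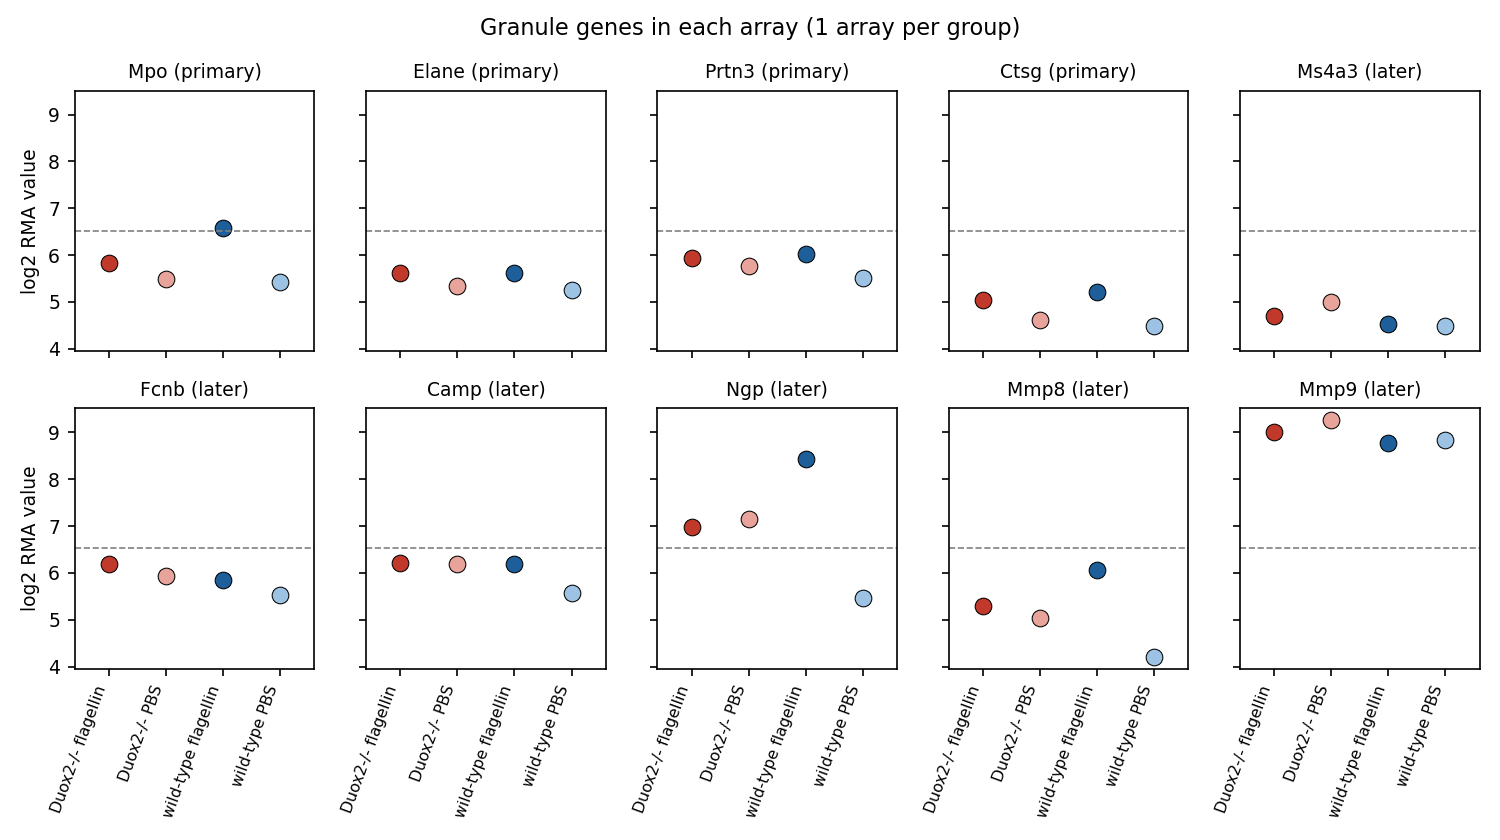
Log2 RMA value (y axis) of each granule gene in the 4 arrays (x axis), 1 point per array and 1 panel per gene, with "later" for the 6 genes outside the primary class and a dashed line at 6.52. Ngp spans 5.47 to 8.44 with wild-type flagellin on top, Camp is level in 3 arrays, and Mmp9 lies over the line throughout. Heights are not comparable between genes, since each has its own probe set.

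In the wild-type comparison 3 of the 10 genes (Ngp, Mmp8 and Mpo) were at least 2-fold higher, against 0.838% of all genes, and 0 were at least 2-fold lower, against 0.0552%. In the arrays labelled Duox2-/- 0 of 10 were at least 2-fold higher, against 0.221% of all genes, and 0 were at least 2-fold lower, against 0.466%. At 1.5-fold the counts were 0 of 10 in the arrays labelled Duox2-/-, against 1.42% of all genes, and 5 of 10 in wild type, against 2.66%. The 2 genes this adds are Ctsg and Camp.

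The primary granule genes were then set against the other 6. In the arrays labelled Duox2-/- 4 of 4 primary granule genes were higher after flagellin, against 3 of 6 of the others and 48.7% of all genes. The median difference there was 0.30 in the primary class and -0.08 in the others, 0.38 apart, beside -0.01 over all genes and 0.10 over the dim genes. This gap kept its sign in every alternative tried. It was 0.54 over Mpo, Ngp and Mmp9 alone, chosen partly by their high arrays and so no support, and otherwise between 0.29 and 0.38. Averaged probe sets and the lack of a dim limit could not change it. In wild type 4 of 4 primary granule genes and 5 of 6 of the others were higher, against 52.1% of all genes, with medians of 0.62 and 0.47 beside 0.01 over all genes.

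The wild-type gap of 0.15 had no stable sign. It was -0.81 with Ms4a3 and Fcnb moved to the early class, both being transcribed early in maturation, -0.28 when means replaced medians and -0.32 over Mpo, Ngp and Mmp9 alone. It was 0.30 without Ngp, -0.0038 without Mmp9 and 0.028 without Mpo. The later class was itself mixed, from -0.06 (Mmp9) to 2.97 (Ngp) in wild type, while the primary class ran from 0.36 (Elane) to 1.14 (Mpo).

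**Figure D3:**
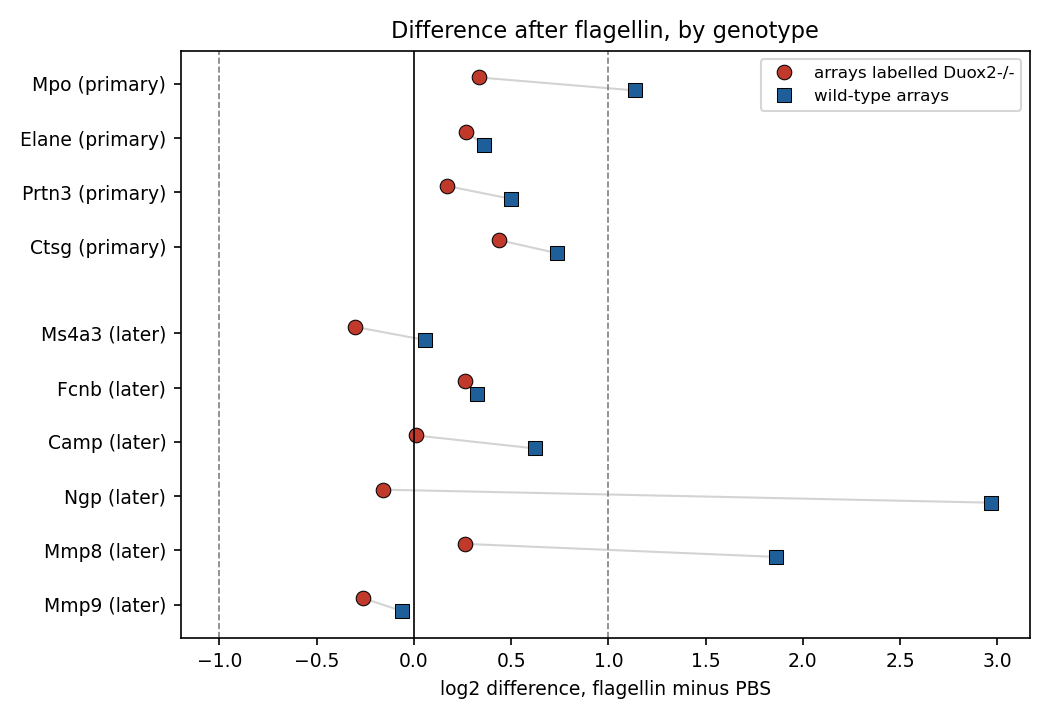
Log2 difference for flagellin minus PBS (x axis) of each granule gene, with circles for the arrays labelled Duox2-/- and squares for the wild-type arrays, and dashed lines at 2-fold. All 4 primary granule genes lie right of 0 in both genotypes, and Ngp, Mmp8 and Mpo pass 2-fold in wild type alone.

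The difference between the responses asks how the granule genes of the arrays labelled Duox2-/- responded relative to wild type. Taken as the Duox2-/- response minus the wild-type response, it was above 0 for 0 of 10 genes as deposited, against 47.1% of all genes. The 0 of 10 held under each of the 3 other scalings. It was -3.13 for Ngp, -1.60 for Mmp8, -0.80 for Mpo and -0.61 for Camp. For the other 6 it lay between -0.36 (Ms4a3) and -0.06 (Fcnb). At least 2-fold below 0 were 2 of 10 (Ngp and Mmp8), against 1.38% of all genes, and 0 were at least 2-fold above 0, against 0.211%. The class medians were -0.31 for the primary genes and -0.49 for the others, beside -0.02 over all genes. With 1 array per group this difference has no test.

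Genotypes were then compared within each treatment. Under PBS the later genes stood higher in the array labelled Duox2-/- than in wild type, by a median of 0.58 over 6 of 6 genes, and the primary genes by a median of 0.11. Ngp was higher there by 1.68, or 3.21-fold, Mmp8 by 0.83, Camp by 0.63, Ms4a3 by 0.53, Mmp9 by 0.43 and Fcnb by 0.40. All 10 genes were above 0 as deposited, against 56.3% of all genes and 79.8% of the dim genes, whose median was 0.21. For the primary genes the direction was not stable: Prtn3 was at 0.25, Ctsg at 0.14, Elane at 0.08 and Mpo at 0.06, and Mpo and Elane were below 0 under all 3 other scalings and Ctsg under 2 of them. The 6 later genes kept their direction under all 3. At least 2-fold higher was 1 of 10 (Ngp), against 1.34% of all genes, and 0 were at least 2-fold lower, against 0.226%. The gap between the class medians was -0.47. It was -0.99 over Mpo, Ngp and Mmp9 alone, chosen partly by their high arrays and so no support, and ran from -0.62 to -0.42 over the other alternatives.

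Under flagellin the array labelled Duox2-/- minus wild type was -1.45 for Ngp, -0.77 for Mmp8 and -0.74 for Mpo. Above 0 were 0 of 4 primary genes and 4 of 6 of the others, against 50.6% of all genes. All 4 primary genes were below 0 there under every scaling, with Ctsg at -0.16, Prtn3 at -0.08 and Elane at -0.01 as deposited. Dim genes as a whole, to which Mpo does not belong, leaned the other way as deposited, 79.8% of them above 0 with a median of 0.28. That lean shrank under the other scalings, to 57.8% and a median of 0.06 under cyclic loess. Fcnb at 0.34 and Mmp9 at 0.23 were higher, as were Ms4a3 at 0.17 and Camp at 0.02, which turned below 0 under 1 and 3 of the other scalings. At least 2-fold lower was 1 of 10 (Ngp), against 1.18% of all genes, and 0 were at least 2-fold higher, against 0.476%. The wild-type flagellin array was the highest of the 4 for 4 of 4 primary genes under every scaling, against 20.4% of all genes and 9.86% of the dim ones as deposited. It was the highest for 2 of the 6 later genes as deposited and for 3 under the other scalings. The wild-type PBS array was the lowest for 9 of the 10 genes as deposited, Mmp9 being the exception, against 29.1% of all genes, and 46.9% of the dim genes, but for 2 or 1 of the 4 primary genes under the other scalings. These comparisons share arrays pairwise: the wild-type PBS value enters both the wild-type response and the PBS difference of each gene.

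**Figure D4:**
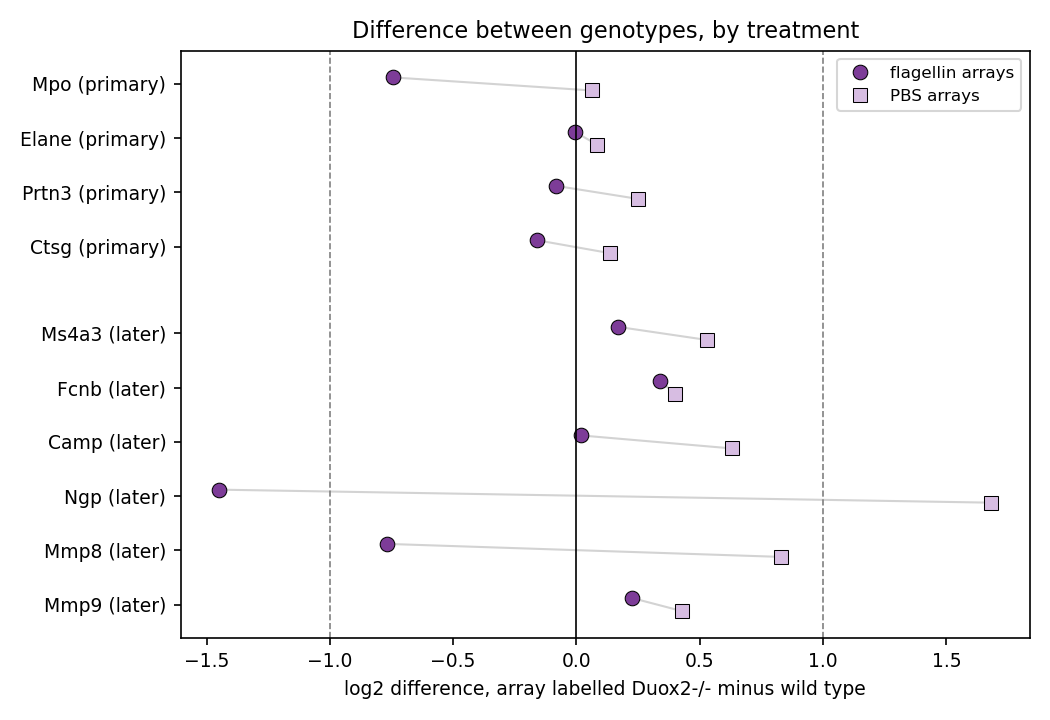
Log2 difference for the array labelled Duox2-/- minus wild type (x axis) of each granule gene, with circles for the flagellin arrays and squares for the PBS arrays, and dashed lines at 2-fold. Ngp lies at 1.68 under PBS and at -1.45 under flagellin, and the primary genes lie near 0 under PBS.

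An additive limma model, with 1 shift for flagellin and 1 for genotype, was fitted to the 12471 genes that reached 6.52 in some array, and it could test Mpo, Ngp and Mmp9. Mpo entered only through the wild-type flagellin array, where it is high, so its shift in this fit is a description and no support. The error term of the fit is the interaction, which leaves a difference between the responses untestable. For flagellin 0 of the 3 passed at an adjusted p of 0.05, against 0.241% of genes that rose and 0.0401% that fell. The shift of Mpo was 0.74 ± 0.19 (SE, limma adjusted p = 0.307), that of Ngp 1.4 ± 0.55 (limma adjusted p = 0.683) and that of Mmp9 -0.16 ± 0.13 (limma adjusted p = 0.956). For genotype 0 of the 3 passed, against 2.39% higher and 1.98% lower in the arrays labelled Duox2-/-, and 1 of 3 had an unadjusted p under 0.05, against 23.2% of the genes tested. Those shifts were 0.33 ± 0.13 for Mmp9 (limma adjusted p = 0.181), -0.34 ± 0.19 for Mpo (limma adjusted p = 0.320) and 0.12 ± 0.55 for Ngp (limma adjusted p = 0.920). With all 19938 genes in the fit, 0 of 10 members passed for either term, against 0.261% up and 0.0401% down for flagellin and 7.03% up and 2.39% down for genotype. Of the 10, 6 had an unadjusted p under 0.05 for flagellin, against 7.09% of the genes, and 3 for genotype, against 29.5%. The lowest adjusted p there was that of Ctsg for flagellin, at a shift of 0.59 ± 0.14 (limma adjusted p = 0.219).

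Other granule genes were read from lists. Of 14 further genes of primary granules and promyelocytes, many of them lysosomal genes used in other cells too, 6 were above 0 after flagellin in the arrays labelled Duox2-/- and 8 in wild type, with medians of -0.13 and 0.15, against 48.7% and 52.1% of all genes above 0. Nkg7, a granule membrane gene of cytotoxic cells as well, was at 0.42 in the arrays labelled Duox2-/- and 0.74 in wild type, Prss57, a primary granule protease, at -0.34 and 0.42, and Bpi, which binds endotoxin, at 0.41 and 0.17, all 3 dim. Gaa, a lysosomal glucosidase that was not dim, was at -0.14 and -0.095. Of 20 further secondary and tertiary granule genes 11 were above 0 in the arrays labelled Duox2-/- and 17 in wild type, with medians of 0.03 and 0.36. Chil3, a chitinase-like gene, followed the pattern of Ngp, at 0.02 in the arrays labelled Duox2-/- and 2.12 in wild type. Lcn2, which withholds iron and is also made by epithelium, was at 1.32 and 1.73. Adam8, a membrane metalloproteinase, was at -0.64 and -0.37, and Orm1, a dim acute phase gene, at 0.56 and 0.79. The array labelled Duox2-/- minus wild type under PBS had a median of -0.10 over these 20 genes, with 8 above 0, beside the 0.58 of the 6 later members, and of -0.03 over the 14 primary and promyelocyte genes, with 7 above 0.

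Regulators of granule gene transcription had medians of 0.04 over 11 genes in the arrays labelled Duox2-/- and 0.07 in wild type. Cebpe, the C/EBP factor that secondary granule genes need, was at 0.20 in the arrays labelled Duox2-/- and 0.11 in wild type. Gfi1, a transcriptional repressor, was at 0.23 and 0.12, and both genes were dim. Csf3r, the receptor of the granulocyte growth factor, was at 0.18 and 0.88. Runx1 was at -0.41 and -0.09, Cebpd, also dim, at 0.04 and 0.48, and Per3 at -0.51 and -0.58. Inhibitors of granule proteases had medians of -0.14 in the arrays labelled Duox2-/- and 0.11 in wild type over 13 genes. Stfa2 and Stfa3, dim stefins that inhibit cysteine proteases, were at 0.37 and 0.46 and at -0.16 and 0.11. Wfdc2, a WAP-domain gene of airway epithelium, was at -0.10 and -0.07, and A2m, which traps proteases of all classes, at 0.12 and -0.09. Serpinb1b, a relative of the neutrophil elastase inhibitor, was at -0.55 and 0.02, and Timp2, an inhibitor of matrix metalloproteinases, at -0.20 and -0.06. Serpina3n and Serpinb1a, not dim, were picked after their values were seen. Serpina3n was at least 2-fold higher after flagellin in the arrays labelled Duox2-/- and at 0.73 in wild type. Serpinb1a was at -0.14 and 0.67. For the array labelled Duox2-/- minus wild type, Serpina3n was at -1.63 under PBS and Serpinb1a at -1.24 under flagellin. After flagellin 1 dim inhibitor was at least 2-fold lower in the arrays labelled Duox2-/-.

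Markers of mature neutrophils had medians of 0.18 in the arrays labelled Duox2-/- (11 of 18 above 0) and 0.96 in wild type (15 of 18), and the list holds Mmp9, itself a member. Cxcl2, a chemokine that attracts neutrophils, was at 1.26 in the arrays labelled Duox2-/- and 2.43 in wild type, over 2-fold in both. The list holds other secreted signals too, and which cells made them or Cxcl2 cannot be told in a bulk sample. S100a8, a subunit of calprotectin, was at 0.45 in the arrays labelled Duox2-/- and 1.83 in wild type, Retnlg, a resistin-like gene, at 0.21 and 1.80, and the chemokine receptor Cxcr2 at 0.29 and 1.25. Ly6g, the surface antigen by which mouse neutrophils are sorted, was at -0.09 and 1.14. It was dim in all 4 arrays and was picked after its values were seen. The whole list ran from -0.38 to 1.26 in the arrays labelled Duox2-/- and from -0.33 to 2.43 in wild type. The summed linear signal of the list was 2043 and 1991 in the flagellin and PBS arrays labelled Duox2-/-, and 2555 and 1690 in the wild-type flagellin and PBS arrays. That sum, too, was highest in wild-type flagellin and lowest in wild-type PBS.

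Marrow holds the cells that transcribe these genes, so lists of its other cells were read in the same arrays; log2 intensities leave no marker at 0. Of 15 matched erythroid genes, 9 of them dim, 14 were lowest in the wild-type PBS array, against 29.1% of all genes and 46.9% of the dim genes, and their summed linear signal was 2042 and 2119 in the flagellin and PBS arrays labelled Duox2-/-, and 2108 and 1611 in the wild-type flagellin and PBS arrays. The median difference for the array labelled Duox2-/- minus wild type under PBS was 0.56 over the erythroid list, beside 0.58 over the later granule genes, and Slc4a1, the band 3 anion exchanger of red cells, was at 1.04. After flagellin the erythroid medians were 0.08 in the arrays labelled Duox2-/- and 0.48 in wild type. Cell cycle genes, listed for neutrophil precursors, gave 0.34 over 12 genes for the PBS difference, with 10 of 12 lowest in wild-type PBS against the same shares, and -0.07 and 0.35 for the responses. Which dividing cells they come from cannot be told in a bulk sample. Bone markers gave 0.61 over 13 genes for the PBS difference. All 13, with Mmp9 among them, were above 0, against 56.3% of all genes and 79.8% of the dim genes. The bone list gave -0.43 and 0.06 for the responses. Its summed signal was 6127 and 8884 in the flagellin and PBS arrays labelled Duox2-/-, and 5838 and 4972 in the wild-type flagellin and PBS arrays. The part of red cells, bone or marrow in the granule gene values was not tested.

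The other lists are given by the same values. Stem and progenitor markers gave 0.01 over 11 genes for the PBS difference and -0.24 and -0.01 for the responses. B cell precursor markers gave 0.31 over 12 genes for the PBS difference, and Vpreb1, part of the surrogate light chain, was at 0.90 and dim, while Vpreb3, of the same pre-B cell stage and not dim, was at -0.79. Their responses were 0.05 and 0.09. Platelet genes gave 0.17 over 8 genes, of which 3 were not dim, with responses of 0.10 and 0.20. Of the 8, 6 were lowest in wild-type PBS, against 29.1% of all genes and 46.9% of the dim genes. Ppbp, a platelet chemokine, was at 0.61 and 1.97 after flagellin and at -0.50 under PBS. Mast cell and basophil genes gave 0.36 over 14 mostly dim genes, with responses of -0.02 and 0.05. Eosinophil genes gave 0.33 over 8 genes, of which 3 were not dim, with responses of 0.18 and 0.40. Of the 8, 7 were lowest in wild-type PBS, against the same shares. Prg2, the major basic protein, was at 0.49 and 2.52 after flagellin and at 1.13 under PBS. Monocyte and macrophage genes gave -0.09 over 13 genes, with responses of -0.38 and 0.21. Nasal epithelium genes gave -0.22 over 15 genes, with responses of -0.07 and -0.09. In each pair of responses the arrays labelled Duox2-/- come before wild type.

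**Figure D5:**
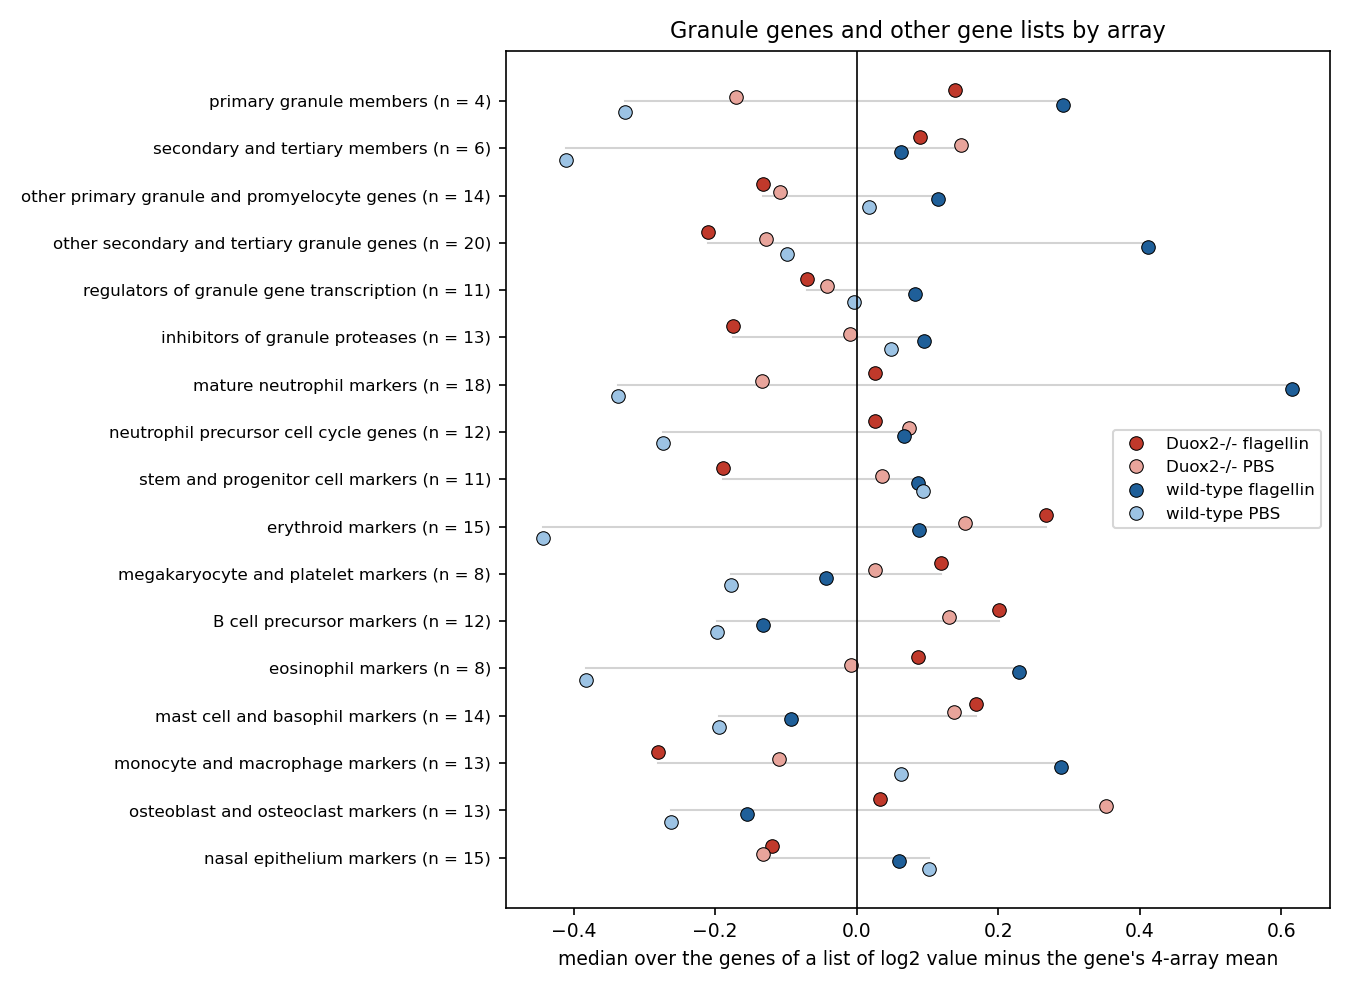
Median over the genes of each list of the log2 value minus the gene's own 4-array mean (x axis), 1 point per array, for the primary and later granule genes and 15 other lists. Wild-type PBS is the leftmost point for both granule classes and for 8 of the 15 other lists, and wild-type flagellin is the rightmost for the primary granule genes and for 7 of the 15.

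The genes nearest to each class over the 4 arrays were found by the root mean square distance between a gene's values, centred on their mean, and the mean centred profile of the class. The search covered 11461 of the 12471 genes that were not dim. Left out were the members and, by name pattern, predicted or unnamed genes, sensory receptors, immunoglobulin and T cell receptor segments, small RNA genes and every gene whose name begins with Rn. Nearest to the primary class was Neurl3, a ubiquitin ligase of the neuralized family, at a distance of 0.04 on the log2 scale. It was followed by Lyz1, a lysozyme whose sequence is close to that of Lyz2, by Nfil3, a basic leucine zipper transcription factor, by Cd177, a neutrophil surface protein, and by Lce1j of the cornified envelope. Nearest to the other class were Mki67, Top2a, H1f5, Slc2a3 and Bub1b, at 0.13 to 0.15, of which Mki67, Top2a and Bub1b are genes of dividing cells. The mean profile they were matched to includes Ngp, the member of widest range. It was highest in wild-type flagellin, at 0.35, where only 2 of the 6 genes were highest. With medians the highest was the PBS array labelled Duox2-/-, at 0.15, so the likeness need not hold for each gene of the class. Mki67 was at -0.20 after flagellin in the arrays labelled Duox2-/- and at 0.64 in wild type.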

How the data were processed

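The deposited table held log2 values for 35556 probe sets on 4 arrays, which the authors made with RMA in Affymetrix Expression Console 1.1, per the submitters' processing notes. RMA corrects background, equalises the arrays and summarises probe sets. The platform annotation gave 1 gene to 21789 probe sets. Where a gene had several, the brightest over the 4 arrays stood for it (19938 genes). Signal over background is not in the table, so the median of all values, 6.52, served as the dim limit. Differences are of log2 values. The additive fit used limma 3.58.1 in R 4.3.3 with Benjamini-Hochberg adjustment and 1 residual degree of freedom. It was run on simulated data with independent noise and additive shifts but no interaction, so that run cannot show how the fit behaves where responses differ. Other work used Python 3.11.15, pandas 2.3.3, numpy 2.4.6 and matplotlib 3.10.9. Of 238 entries in 17 gene lists 207 were matched. All 10 members were named. Of each other list up to 4 genes (6 for regulators and inhibitors) were named, from the top down, by the absolute value of a mean. That mean was over both flagellin differences and the PBS difference, so differences of opposite sign cancel in it. Ly6g, Serpina3n, Serpinb1a, Acp5, Ctsk, Olfm4, Itgam and Cybb were named after their values were seen. The members and lists were chosen with earlier results of these data known. Alternatives were 3 scalings, averaged probe sets, no dim limit, 1.5-fold, means, other class borders and leaving out Ngp, Mmp9 or Mpo, the last 3 chosen after seeing the data.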

Additional observations from a re-analysis of the deposited data

Results flagged for a closer look

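Several granule genes had differences of opposite sign in the 2 arms of a contrast, each arm resting on 1 array against 1, and none of these was tested. After flagellin Ngp was at -0.16 in the arrays labelled Duox2-/- and at 2.97 in wild type, a difference between the responses of -3.13, and Ms4a3 was at -0.30 and 0.06, a difference of -0.36. Between the genotypes, Ngp was lower in the array labelled Duox2-/- under flagellin (-1.45) and higher under PBS (1.68), which is the same -3.13. Mmp8 did likewise (-0.77 and 0.83, a difference of -1.60), as did Mpo (-0.74 and 0.06, a difference of -0.80), Prtn3 (-0.08 and 0.25, -0.33), Ctsg (-0.16 and 0.14, -0.30) and Elane (-0.01 and 0.08, -0.091). For Mpo, Elane and Ctsg the sign under PBS turned with the scaling.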

How the results depend on the processing

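No alternative reversed a difference of 2-fold or more. Of 150 member differences recomputed under the 3 other scalings 149 stayed within 1 robust SD of that contrast over all genes. The exception was the wild-type response of Ngp, 2.79 after quantile renormalisation against 2.97. That SD was 0.16 to 0.39, so a small difference could change sign and still count as staying. Mpo under PBS did so, at 0.06 as deposited and -0.15 under cyclic loess. Averaged probe sets and the lack of a dim limit could not change a member's difference, since each has 1 probe set. Scaling turned some small differences, as given beside them. The count of members at least 2-fold higher in wild type became 5 at 1.5-fold, and the count in the arrays labelled Duox2-/- was 0 in every alternative. Over the 3 genes that were not dim, chosen partly by their high arrays and so no support, the primary median (Mpo alone) was 1.14 for the wild-type response, -0.74 for the genotype difference under flagellin and -0.80 for the difference between responses. The later median was 1.45, 1.06 under PBS, -0.61 under flagellin and -1.67, and the primary minus later gap was -0.32, -0.99 under PBS and 0.86 between responses. With Ms4a3 and Fcnb in the early class the wild-type response medians were 0.43 and 1.24 with a gap of -0.81, the later median under flagellin was -0.38 with a gap of 0.33, and the later median between responses was -1.11 with a gap of 0.79. With means the later class was at 0.96 in wild type with a gap of -0.28, and at -0.99 between responses with a gap of 0.61. The shifts over 3 genes and with another class border follow from the changed membership, and the cause of those with means was not tested. No member passed the additive fit in any of the 6 fits run, with lowest adjusted p-values (limma) of 0.219 to 0.627 for flagellin and 0.106 to 0.201 for genotype. No paired analysis was possible because each group has 1 array and the labels number no replicates. The number of arrays limits every value, and 7 of 10 members lay near background.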

Other observations

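Among secondary granule genes, Olfm4, a protein of a subset of neutrophils in mouse and human, was picked after its values were seen. It read 6.19 and 7.47 in the flagellin and PBS arrays labelled Duox2-/-, and 8.84 and 7.94 in the wild-type flagellin and PBS arrays. Unlike Ngp it was lowest in the flagellin array labelled Duox2-/-, with differences after flagellin of -1.29 in the arrays labelled Duox2-/- and 0.90 in wild type. Itgam and Cybb, also picked after their values were seen, encode an integrin chain and an oxidase subunit that monocytes and macrophages carry as well. Under PBS they lay below wild type in the array labelled Duox2-/-, at -0.56 and -0.25, where Ngp was at 1.68.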
